A study of Homo sapiens with 6 samples.

Results

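Cytosolic ribosomal proteins are the protein part of the ribosome, and their genes were described here in VCaP, an established line of human prostate cancer cells. The members were the rows of the count table whose symbol follows the pattern of the large subunit (RPL), the small subunit (RPS), the stalk proteins (RPLP0, RPLP1 and RPLP2) or RPSA. Pseudogenes and paralogs with an L in the suffix drop out by that pattern. It took 77 of 58735 genes, 46 of the 60S subunit and 31 of the 40S subunit, and all 77 passed the filter on low counts, which left 13958 genes in the test. The cells were stably infected with a short hairpin RNA against NEDD9 (shNEDD9, 3 libraries) or with a non-targeting control hairpin (shNTC, 3 libraries). Both groups were grown in DMEM with 10% foetal bovine serum, and the libraries are described as biological triplicates of total RNA, made with a stranded kit. The labels name 1 hairpin target per group and no second hairpin, so an effect of NEDD9 loss and an effect of that hairpin cannot be told apart. The study asked which genes change when NEDD9 is silenced.

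A ribosome is built from ribosomal RNA and a fixed set of proteins, and the genes of these proteins are known for being expressed together. Most of their mRNAs begin with a C followed by a run of pyrimidines, the terminal oligopyrimidine (TOP) tract, through which mTORC1 signalling and the RNA-binding protein LARP1 control their translation. MYC is a known activator of their transcription. A few ribosomal proteins have roles off the ribosome: RPL5 and RPL11, with the 5S ribosomal RNA, bind MDM2 when assembly fails.

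The start sites show the feature that most members share and that the choice of members did not use. The windows below run from 20 bases before to 20 bases from the start annotated by RefSeq (GRCh38.p14), and capitals mark the run of C and T that begins at the start itself, where there is a C followed by at least 4 pyrimidines. They are shown for stalk proteins, RPS6 and RACK1, which had large increases or high levels, for RPL14, RPL29, RPSA and RPS3A, which had small increases or none, for RPL9, the called decrease, and for FAU.
RPLP1 (chr15:69452798-69452837, plus strand): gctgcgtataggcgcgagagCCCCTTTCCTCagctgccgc
RPLP2 (chr11:809947-809986, plus strand): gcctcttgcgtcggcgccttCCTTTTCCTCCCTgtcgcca
RPS6 (chr9:19380217-19380256, minus strand): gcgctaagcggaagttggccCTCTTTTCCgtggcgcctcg
RACK1 (chr5:181243887-181243926, minus strand): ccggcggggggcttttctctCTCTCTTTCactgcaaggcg
RPL14 (chr3:40457319-40457358, plus strand): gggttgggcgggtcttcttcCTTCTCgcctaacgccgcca
RPL29 (chr3:51995876-51995915, minus strand): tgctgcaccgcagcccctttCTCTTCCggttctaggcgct
RPSA (chr3:39406700-39406739, plus strand): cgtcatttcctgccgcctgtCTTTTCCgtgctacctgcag
RPS3A (chr4:151099608-151099647, plus strand): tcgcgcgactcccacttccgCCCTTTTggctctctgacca
RPL9 (chr4:39458903-39458942, minus strand): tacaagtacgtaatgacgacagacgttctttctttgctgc
FAU (chr11:65122115-65122154, minus strand): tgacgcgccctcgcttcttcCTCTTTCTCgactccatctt

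Such a tract stood at a start of 46 of the 62 members with an entry in the promoter table (74.2%), against 757 of 10290 tested genes with an entry (7.36%), members included. The tracts of members were 5 to 19 bases long, with a median of 8. RPL9 has none at this annotated start, which says only that these letters are not at this position. Members with a tract and members with an entry but no tract had median log2 fold changes (shNEDD9 over shNTC) of 0.74 and 0.64. The 711 other tested genes with such a tract had a median of 0.12, and 336 of them (47.3%) were called higher. The 9518 other tested genes with an entry and no tract had a median of -0.01, and 35.5% were called higher. The E-box CACGTG, the sequence that MYC and MAX bind, occurred in 5.19% of the 77 promoter windows of members (each 300 bases, both strands), in 9.25% of the windows of tested genes and in 7.26% of all 35116 windows. The ETS-type sequence CCGGAAG occurred on either strand in 33.8% of the windows of members, in 16.4% of those of tested genes and in 10.3% of all windows.

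The libraries held 3217276 to 9902002 counts. NEDD9, the targeted gene, was lower in every shNEDD9 library, at 136 to 138 CPM (read counts relative to the library total, scaled with TMM factors) against 339 to 365 CPM in shNTC. All 10 prostate and VCaP markers that were checked were tested, among them KLK3, ERG and TMPRSS2. Of the markers of other cell types, 2 of 8 fibroblast, 2 of 8 immune and 2 of 8 endothelial genes passed the filter. Summed fibroblast markers stood at 26.8 to 34.6 CPM in shNTC and 47.5 to 54.6 CPM in shNEDD9, most of it LUM, with THY1 at 0. The other fibroblast gene tested, COL1A1, went the other way, from 5.38 to 9.74 CPM to 4.197 to 5.37 CPM (log2 fold change -0.55, edgeR adjusted p = 0.0106), and its call ended without shNTC replicate 2 (-0.38, edgeR adjusted p = 0.112), in DESeq2, after thinning and once trends with length and GC were removed. Summed immune markers stood at 18.8 to 25.1 CPM in shNTC and 5.71 to 6.66 CPM in shNEDD9, most of the former LYZ, with CD3E and CD68 at 0. Summed endothelial markers stood at 10.4 to 11.7 and 9.58 to 11.1 CPM, with CDH5 at 0. Their part in the ribosomal protein results was not tested. Nothing in the labels says whether the 3 libraries of a group came from separate cultures, so the p-values reflect no more than how much the libraries of a group varied, and that variation may be technical.

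Ribosomal protein reads took a larger share of the shNEDD9 libraries. The 77 members together held 2.83%, 2.87% and 2.89% of the counts in the 3 shNTC libraries and 4.94%, 4.85% and 4.98% in the 3 shNEDD9 libraries. The groups lay far apart, at 2.87 ± 0.03% against 4.92 ± 0.07% (SD, n = 3 each), a ratio of 1.72. Both subunits contributed, with the 60S members going from 1.68 ± 0.02% to 2.87 ± 0.04% and the 40S members from 1.19 ± 0.01% to 2.05 ± 0.03% (SD, n = 3 each). The ratio of 60S to 40S counts was 1.41 to 1.42 in shNTC and 1.39 to 1.40 in shNEDD9. These are shares of a library: more such RNA per cell and less of other RNA cannot be told apart, nor can a different mix of cells.

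**Figure D1:**
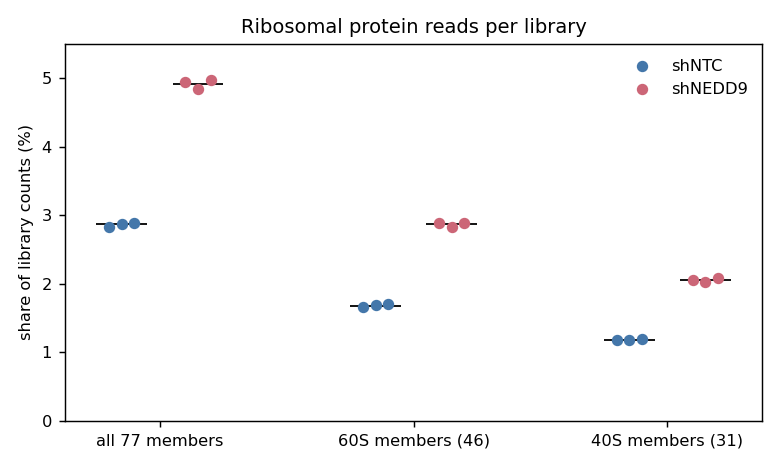
Share of library counts (%, linear axis from 0) held by all 77 ribosomal protein genes, the 46 of the 60S subunit and the 31 of the 40S subunit. Each point is a library and each horizontal line the mean of 3; the shNEDD9 libraries sit at 4.85% to 4.98% and the shNTC libraries at 2.83% to 2.89% for all members.

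Gene by gene, 71 of the 77 members rose, 1 fell (RPL9) and 5 were not called (RPL7, RPL36A, RPS3A, RPS10 and RPS27), by edgeR's quasi-likelihood test with Benjamini-Hochberg adjustment over all genes tested and a threshold of 0.05. Across all tested genes 35.5% were called higher and 35.9% lower, and the groups did not overlap in 71.8%. In the members the groups did not overlap in 72 of 77. An increase of at least 1.5-fold was called in 56 members, against 17.2% of all tested genes. The median log2 fold change of the members was 0.73, with the middle 50% spanning 0.32, against a median of 0.00 and a span of 0.85 over all tested genes. Both subunits had a median of 0.73. The largest adjusted p among the 71 that rose was that of RPS26 (edgeR adjusted p = 0.0158), at 8.14 to 8.48 CPM in shNTC and 9.90 to 12.1 CPM in shNEDD9. Its call ended in DESeq2, after thinning every library to the smallest total, once trends with length and GC were removed, and without shNTC replicate 1, shNTC replicate 3 or shNEDD9 replicate 2.

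**Figure D2:**
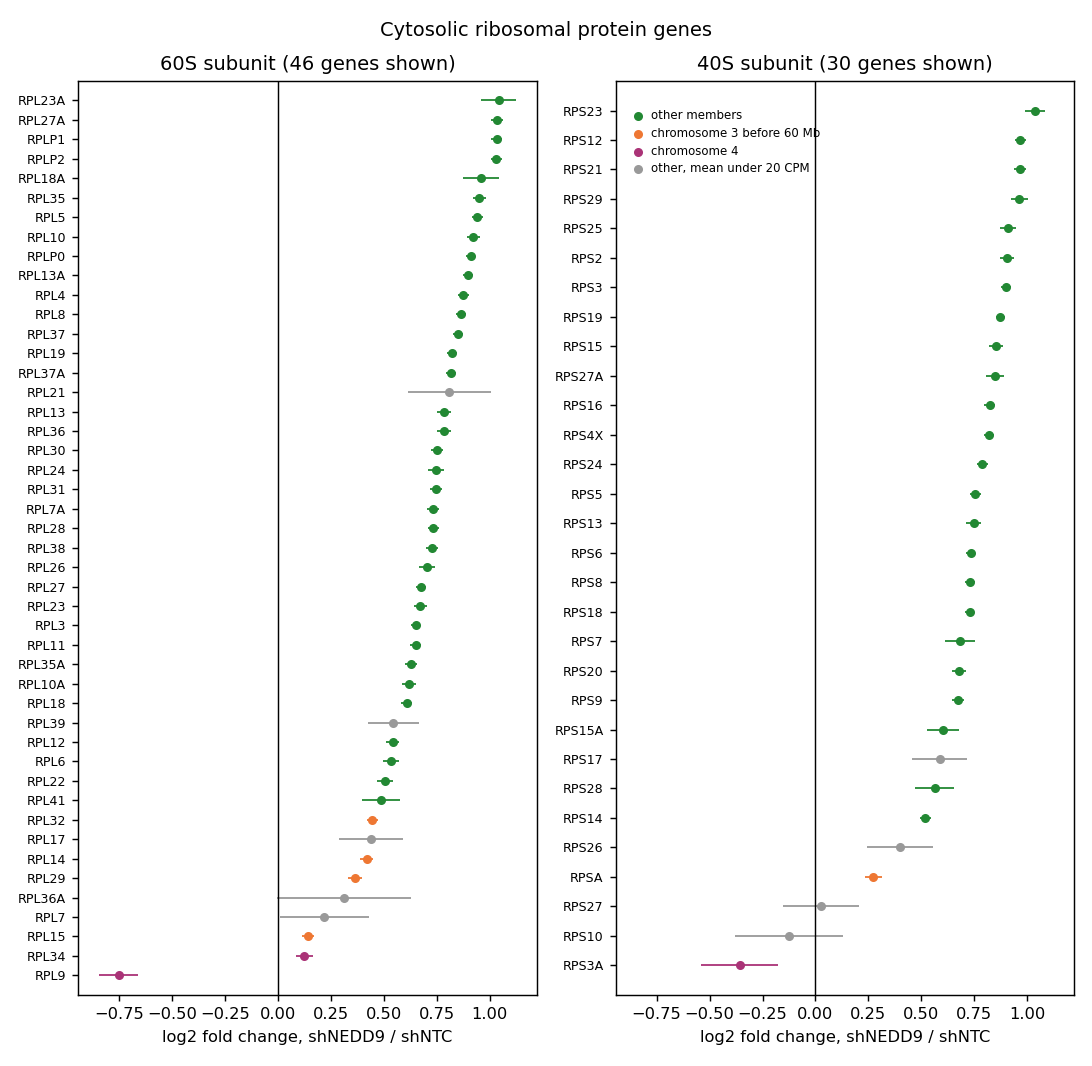
Log2 fold change (shNEDD9 over shNTC) of the 60S genes (left) and the 40S genes (right, without 1 member that is not reported by name), ordered by value, with bars of 1 standard error. Purple marks chromosome 4, orange chromosome 3 before 60 Mb and grey other members with a mean under 20 CPM; most green points lie between 0.49 and 1.04.

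Proteins of the P stalk, the flexible arm of the 60S subunit that recruits and activates the elongation factors, were near the top of the order. RPLP1 (ENSG00000137818, GRCh38 chromosome 15, 69452784 to 69456194) stood at 542, 577 and 593 CPM in shNTC and 1140.5, 1148 and 1200.5 CPM in shNEDD9, a log2 fold change of 1.03 (SE 0.02). Its partner RPLP2 stood at 438, 457 and 447 CPM and at 898, 887 and 941 CPM (1.03, SE 0.03). RPLP0, which anchors both to the ribosome, went from 804, 875 and 848 to 1583, 1534 and 1607 CPM (0.91, SE 0.02). In all 3 genes the lowest shNEDD9 library lay well above the highest shNTC library. RPL12, at the base of the same stalk, rose less, from 319.8 to 343 CPM to 474 to 498 CPM (0.54, SE 0.03). As a share of the reads of all 77 members, which does not depend on library scaling, RPLP0, RPLP1 and RPLP2 held 6.25%, 6.57% and 6.46% in shNTC and 7.33%, 7.41% and 7.54% in shNEDD9.

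The pair of 5S RNP proteins that bind MDM2 both rose, by different amounts. RPL5 (ENSG00000122406, chromosome 1, 92831983 to 92841924) stood at 455, 462 and 456 CPM in shNTC and 907, 864 and 866 CPM in shNEDD9 (log2 fold change 0.94, SE 0.03). RPL11 (ENSG00000142676, chromosome 1, 23691742 to 23696835) stood at 642, 667 and 670.1 CPM and at 1047, 1019 and 1035 CPM (0.65, SE 0.02). Within the reads of the members, RPL5 went from 1.58 ± 0.02% to 1.79 ± 0.05% and RPL11 from 2.28 ± 0.03% to 2.11 ± 0.02% (SD, n = 3 each), so their shares moved in opposite directions. Of the 9 members listed as binding MDM2, 8 rose (median 0.68), with RPS27 not called. Of all 77 members 71 rose, and 35.5% of all tested genes were called higher. RPS27A, made as a fusion with ubiquitin, rose by 0.85 and RPL26 by 0.71 on the log2 scale.

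All 8 proteins of the wall and exit of the peptide tunnel rose (median log2 fold change 0.78). Among all 77 members 71 rose, as did 35.5% of all tested genes. RPL23A, at the exit where signal recognition particle docks, had the largest increase of all members, from 26.5, 23.9 and 25.04 CPM to 54.9, 51.5 and 51.6 CPM (1.04, SE 0.08, a 2.06-fold increase). RPL4, whose long loop lines the tunnel, rose by 0.88, RPL35 by 0.95 and RPL19 by 0.82. RPL39 and RPL17 rose by 0.55 and 0.44 at low counts, and the call of RPL17 ended after thinning and once trends with length and GC were removed. Near the peptidyl transferase centre, RPL3 rose by 0.65 (1094 to 1110 CPM in shNTC and 1689 to 1775 CPM in shNEDD9) and RPL10, which joins late in assembly, by 0.92. RPL27A rose by 1.04, from 283 to 298 CPM to 581 to 613 CPM, and RPL13A by 0.90. RPL41, the smallest ribosomal protein, rose by 0.49 from 24.6 to 29.2 CPM to 30.5 to 40.5 CPM, and RPL22 by 0.51.

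In the 40S subunit, 13 of 14 head proteins rose, with RPS10 not called (median log2 fold change 0.83). The share that rose was 28 of 31 over the 40S members and 35.5% over all tested genes. RPS12 and RPS29 rose by 0.97 and 0.96, RPS25 by 0.91 and RPS3, at the mRNA entry channel, by 0.90 (SE 0.02), from 893 to 909.9 CPM to 1653 to 1694 CPM. RPS23, a protein of the decoding centre, went from 73.4, 77.3 and 80.6 CPM to 145, 157 and 166 CPM (1.04, SE 0.05), the largest increase of the subunit. RPS21 rose by 0.97, RPS2, another protein of the entry channel, by 0.91 and RPS4X by 0.82. RPS6, the substrate of S6 kinase, had the highest CPM of all members, at 1546, 1588 and 1564 CPM in shNTC and 2620.5, 2525 and 2654 CPM in shNEDD9 (0.73, SE 0.02), which is the median of the members. RPS14, a protein of the platform, rose by 0.52 (SE 0.03).

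Of 19 members whose mutations are known in Diamond-Blackfan anaemia, an inherited failure of red cell production, 17 rose and 2 were not called (median log2 fold change 0.65). Over all members 71 of 77 rose, and over all tested genes 35.5% were called higher. RPS19, the gene first linked to this anaemia, rose by 0.87 (SE 0.02), from 948 to 985 CPM to 1727 to 1799 CPM. Per kilobase of the annotated principal transcript (GENCODE 29), among the highest levels in shNTC and shNEDD9 were those of RPS19 (1829.9 and 3340 CPM per kb), RPS18 (1784 and 2957 CPM per kb) and RPL19 (1249 and 2206 CPM per kb). That order depends on the transcript models: those of RPL37A, RPL37, RPL27A and RPS23 are 3647, 7686, 4916 and 3437 bases long, which lowers their level per kilobase. The least abundant per kilobase were RPL7 (4.6 and 5.21 CPM per kb), RPL36A (4.26 and 5.87 CPM per kb), RPS10 (5.93 and 5.44 CPM per kb) and RPS3A (8.76 and 6.63 CPM per kb). Those 4 are among the 5 members that were not called. RPS27, the fifth, stood at 5.92 to 8.48 CPM in shNTC and 6.38 to 7.76 CPM in shNEDD9 (log2 fold change 0.03, SE 0.18, edgeR adjusted p = 0.907).

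**Figure D3:**
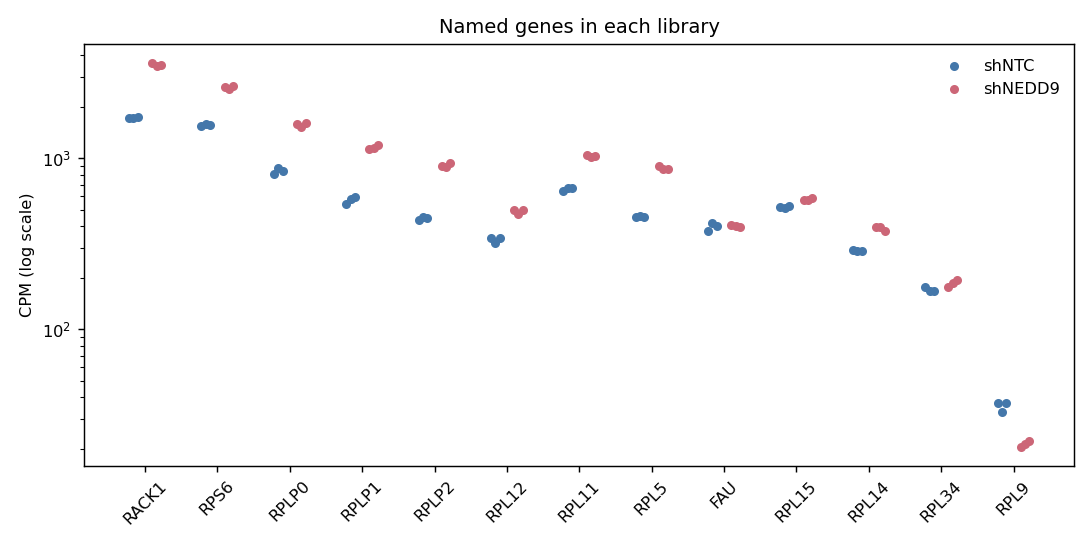
CPM per library (log scale) of selected ribosomal protein genes, with shNTC in blue and shNEDD9 in red, 3 points per group. The groups are apart for RACK1 (1722 to 1743 against 3464 to 3597 CPM) and the stalk genes, overlap for FAU and are reversed for RPL9.

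At the low end of read level, 10 members had a mean under 20 CPM, a boundary set after the values were seen, and 5 of those were called. Among the 67 members with a mean of at least 20 CPM, 66 rose and 1 fell. Processed pseudogenes, reverse-transcribed copies of ribosomal protein mRNAs, can share reads with these genes, and how reads that match several places were counted is not given in the sources used here. In 13 members over 5% of the summed counts of the gene and its named pseudogenes lay on the pseudogenes, and the share was 89.0% for RPL7, 73.6% for RPS10, 65.2% for RPL9 and 55.1% for RPL21. The readthrough genes RPS10-NUDT3, RPL36A-HNRNPH2 and RPL17-C18orf32, which share exons with RPS10, RPL36A and RPL17, had 0 counts in all libraries.

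RPL9 (ENSG00000163682, chromosome 4, 39452521 to 39458949, minus strand) was the member called lower, at 37.0, 33.0 and 37.1 CPM in shNTC and 20.6, 21.4 and 22.2 CPM in shNEDD9. It was 1.68-fold lower (log2 fold change -0.75, SE 0.09, edgeR adjusted p = 5.75e-16), and the groups did not overlap. Its pseudogene RPL9P9 (ENSG00000237550, chromosome 15, 82372196 to 82372912) went the other way, from 36.8, 38.3 and 39.3 CPM to 62.6, 61.6 and 58.3 CPM (0.67, SE 0.07). With the reads of its 17 pseudogenes added, RPL9 was higher by 0.15 (SE 0.06, edgeR adjusted p = 0.0115), so the direction of RPL9 depends on where its reads are counted. LIAS, which overlaps RPL9 on the opposite strand, rose by 0.53 on the log2 scale. The strand setting of the counting is not given in the sources used here.

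RPL7 turned in the opposite sense. The gene itself had 4.38 to 5.97 CPM in shNTC and 5.34 to 6.21 CPM in shNEDD9 and missed the threshold (0.22 on the log2 scale, edgeR adjusted p = 0.347). RPL7P16 (ENSG00000242899, chromosome 3, 132243528 to 132244265) held most of the related reads and fell from 58.0, 46.5 and 53.2 CPM to 34.7, 29.4 and 32.8 CPM (-0.75, SE 0.08). Summed with its 61 pseudogenes, RPL7 was lower by 0.58 on the log2 scale (edgeR adjusted p = 2.80e-16). RPS10 stood at 2.82 to 4.08 and 3.05 to 3.86 CPM (log2 fold change -0.12, edgeR adjusted p = 0.674), and summed with 11 pseudogenes it rose by 0.49 (edgeR adjusted p = 0.000564). With pseudogene reads added throughout, 73 members rose and 1, RPL7, fell.

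**Figure D4:**
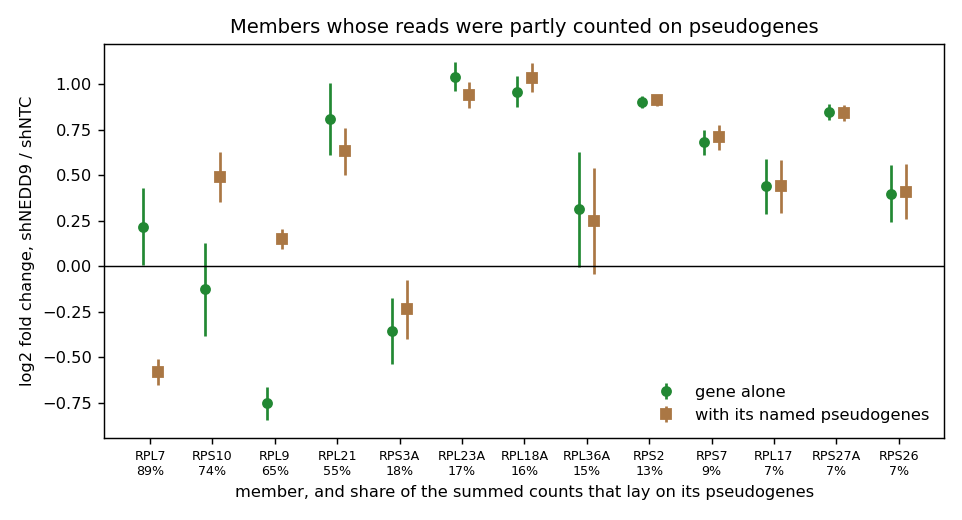
Log2 fold change (shNEDD9 over shNTC, bars 1 standard error) of 13 members counted alone (green circles) and with their named pseudogenes (brown squares). Members are ordered by the share of summed counts on pseudogenes; RPL9 goes from -0.75 to 0.15, RPS10 from -0.12 to 0.49 and RPL7 from 0.22 to -0.58.

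Among the members of at least 20 CPM, the 7 on chromosome 4 or in the first 60 Mb of chromosome 3 had the lowest log2 fold changes, all at or below 0.45, and the other 60 were at 0.49 or above. All 5 members on chromosome 3 before 60 Mb, a boundary set after the values were seen, rose by less than the median. RPL15 (chromosome 3, 23916545 to 23924374) went from 522, 509.6 and 526 CPM to 567, 573 and 582 CPM (log2 fold change 0.14, SE 0.03), a call that ended, at -0.015, once trends with length and GC were removed. RPSA, the laminin receptor precursor that also sits on the 40S subunit, went from 134, 149.9 and 144 CPM to 177, 162 and 173 CPM (0.27, SE 0.04). RPL29 rose by 0.37, RPL14 (292, 288 and 287 CPM to 394, 397 and 374 CPM) by 0.42 and RPL32 by 0.45. The remaining members on that chromosome, RPL24 (101681091 to 101686782) and RPL35A (197949980 to 197956610), rose by 0.75 and 0.63. As a share of all member reads, the 5 genes went from 5.99 ± 0.07% to 4.45 ± 0.03% (SD, n = 3 each).

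The 3 members on chromosome 4 were RPL9 (-0.75, or 0.15 with pseudogene reads added), RPL34 and RPS3A. RPL34 stood at 177, 167 and 168 CPM in shNTC and 178, 188 and 194 CPM in shNEDD9 (log2 fold change 0.13, SE 0.04, edgeR adjusted p = 0.00202). Its call ended after thinning (0.09, edgeR adjusted p = 0.130), and it turned to -0.09 once trends with length and GC were removed (adjusted p from 0.000217 to 0.130 over the alternatives run). RPS3A stood at 6.19, 9.43 and 8.92 CPM and at 6.38, 6.87 and 5.34 CPM, with overlapping groups, and missed the threshold (-0.36, SE 0.18, edgeR adjusted p = 0.0663). With shNTC replicate 1 left out RPS3A was called lower (-0.57, edgeR adjusted p = 0.0104). It was also called lower with shNEDD9 replicate 2 left out (-0.44, edgeR adjusted p = 0.0448). The same call came with trends of length and GC removed (-0.58, edgeR adjusted p = 0.00245) and with the replicate number as a block.

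Other genes of the same regions were mostly lower. The members of these regions mostly rose, though by less than the median of all members. The 346 other tested genes on chromosome 3 before 60 Mb had a median log2 fold change of -0.40, with 50 called higher and 227 lower, and the 431 after it a median of -0.03, with 143 higher and 153 lower. On chromosome 4 the 497 other tested genes had a median of -0.29 (106 higher, 271 lower). Outside these regions, the 192 other tested genes of chromosome 18 had a median of -0.31 (51 higher, 104 lower). The 480 of chromosome 8 had a median of 0.06 (187 higher, 151 lower). Each member was set beside the 16 to 234 other tested genes that start within 5 Mb of it. Around RPL15, RPSA, RPL14, RPL9 and RPS3A those genes had medians of -0.38, -0.49, -0.43, -0.48 and -0.49. In 10 members the neighbours' median was below -0.25, a boundary set after the values were seen. Among them were RPL17 on chromosome 18 (-0.40), RPL36A on chromosome X (-0.38) and RPL7 on chromosome 8 (-0.29). None of those 10 had a log2 fold change above 0.45. Next above that boundary came RPS4X (neighbours' median -0.23, log2 fold change 0.82), RPL5 (-0.20 and 0.94) and RPL34 (-0.19 and 0.13). Across the 77 members a member's log2 fold change and its neighbours' median had Pearson's r of 0.59 and Spearman's rho of 0.41. These describe points that share libraries and, in part, neighbours. Over the 67 members whose neighbours' median was -0.25 or above, r was 0.15 and rho 0.13. A member's value minus its neighbours' median was positive in 75 of 77, with a median of 0.70. Among members of at least 20 CPM outside chromosome 4 and the first 60 Mb of chromosome 3, all 60 rose, by 0.49 to 1.04.

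**Figure D5:**
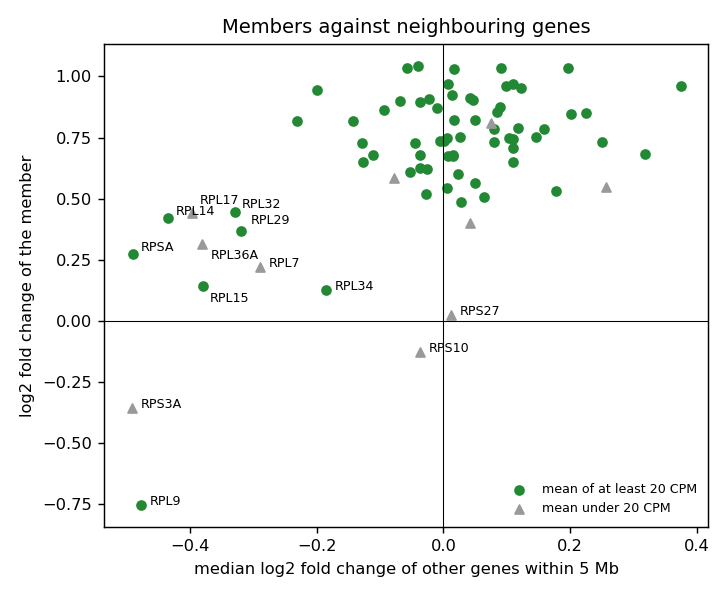
Log2 fold change of each of the 77 members (vertical) against the median log2 fold change of the other tested genes within 5 Mb (horizontal). Circles have a mean of at least 20 CPM and triangles less; RPL9, RPS3A, RPL15, RPSA and RPL14 lie at the left, where neighbours' medians are -0.38 to -0.49.

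RACK1 and FAU are ribosomal proteins under other names and so are not members. RACK1, a signalling scaffold on the 40S head, stood at 1727, 1722 and 1743 CPM in shNTC and 3597, 3464 and 3491 CPM in shNEDD9 (log2 fold change 1.02, SE 0.02). FAU, a ubiquitin-like protein fused to a 40S protein, stood at 377, 419 and 404 CPM and at 409.9, 399.6 and 397 CPM. The start of FAU carries the tract shown above. The groups of FAU overlapped and it was not called (0.02, SE 0.03, edgeR adjusted p = 0.605). It came out slightly lower once trends with length and GC were removed (-0.07, edgeR adjusted p = 0.0185).

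The paralogs, alternative copies that can replace a ribosomal protein in some tissues, went differently from one another. RPL22L1, the paralog of RPL22, rose from 18.8, 20.1 and 15.96 CPM to 31.6, 37.1 and 37.4 CPM (log2 fold change 0.99, SE 0.10), beside an increase of 0.51 for RPL22 itself, and the difference between the pair was not tested. RPL7L1 rose by 0.20. RPS27L, a paralog of RPS27, stood at 42.8 to 46.01 CPM and 43.1 to 50.5 CPM and RPL36AL at 39.3 to 44.2 CPM and 38.4 to 45.7 CPM, and neither was called (edgeR adjusted p = 0.318 and 0.579). RPL26L1 was not called either (0.42, edgeR adjusted p = 0.0983) and was called after thinning (1.04, edgeR adjusted p = 0.00175). RPL39L had 2 counts in each group, and RPL3L and RPL10L had 0 counts.

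Genes of elongation and other genes listed for TOP mRNAs moved the same way, where 35.5% of all tested genes were called higher. All 18 tested of 19 elongation and other TOP genes rose (median log2 fold change 0.66), among them EEF1B2, a nucleotide exchange subunit of the elongation factor eEF1 (1.26), NPM1, a nucleolar chaperone (0.95), HNRNPA1 (0.85) and BTF3 (0.84). Of 12 genes that chaperone ribosomal or nascent proteins, 11 rose (median 0.34), including NAP1L1 (0.78), PDCD2L (0.70) and NACA (0.52). NAP1L1, NACA and BTF3 are on both lists.

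Genes that assemble the subunits were mostly higher, with smaller medians than the members. Over all tested genes, 35.5% were called higher and 35.9% lower. Of 25 factors of 60S assembly and export, 22 rose and 1 fell (median log2 fold change 0.45). RSL24D1 rose by 1.45 (31.1 ± 2.85 to 87.1 ± 1.01 CPM, SD, n = 3 each), MRTO4, which holds the place of RPLP0 during assembly, by 0.96, the export adaptor NMD3 by 0.93 and EIF6, which keeps the subunits apart, by 0.82. Of 19 tested factors of 40S assembly, 15 rose and 2 fell (median 0.34), with the kinase RIOK1 up by 1.10, EMG1 by 0.81, NOB1 by 0.72 and RRP12 by 0.69. Of 15 genes of the RNA polymerase I machinery, which transcribes ribosomal RNA, 10 rose and 1 fell (median 0.45), led by TAF1D (1.23), RRN3 (0.89), POLR1E (0.79) and TWISTNB (0.65).

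Regulators went in both directions, and the shares over all tested genes to read them against are 35.5% higher and 35.9% lower. Of 21 regulators of TOP mRNAs and mTORC1, 12 rose and 4 fell (median log2 fold change 0.19). EIF4EBP1, a translation repressor that mTORC1 inactivates, rose by 2.37 (43.7 ± 0.67 to 227 ± 0.79 CPM, SD, n = 3 each), the mTOR inhibitor DEPTOR by 0.87 and the mTOR subunit MLST8 by 0.81, while LARP1B fell by 0.53. Of 11 tested transcription factors listed for ribosomal protein genes, 7 rose and 2 fell (median 0.39). MYC rose by 1.07 (291 ± 8.23 to 606 ± 17.3 CPM, SD, n = 3 each), ATF4 by 1.35 and E2F1 by 1.36, and TBPL1, a relative of the TATA-binding protein, fell by 1.47.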

How the data were processed

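RNA was measured by sequencing in 6 libraries of VCaP cells, 3 shNTC and 3 shNEDD9, grouped by their titles. The deposited table gives raw read counts per gene. FastQC 0.11.5, cutadapt 1.9, STAR 2.5.3a and featureCounts of Subread 1.6.2 are named in the submitters' processing notes, with the builds hg19 and GRCh38. The role of each build, the strand setting and the treatment of reads with several matches are not given in the sources used here. All 58735 gene identifiers occur in the GENCODE annotation of GRCh38, from which positions and transcript lengths were taken. A row without an identifier was left out.

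Counts were filtered with filterByExpr (minimum count 10), scaled with TMM and tested across 13958 genes with edgeR 4.0.16 (R 4.3.3), using the quasi-likelihood test and Benjamini-Hochberg adjustment with a threshold of 0.05. Each standard error (SE) was derived from that test. It is the size of the log2 fold change, fitted without edgeR's small added count, divided by the square root of the F statistic. The script was tested on simulated data. The library totals set the precision: 3 counts, the limit that a count of 0 allows, correspond to 0.303 to 0.932 CPM. Replicate libraries differed by slightly more than counting error, with chi-square per degree of freedom between 1.14 and 1.20. Alternatives used other scalings and filters, DESeq2 1.42.0, limma 3.58.1, thinning, a length and GC correction, pseudogene reads, the replicate number as a block and each library left out. Promoter sequences came from RefSeq (GRCh38.p14), where 62 of 77 members matched by symbol.

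The members and lists were chosen with earlier results of these data known, and no list was tested as a set. Genes were named by role, by the 6 largest and 6 smallest log2 fold changes, by failing the threshold or being called against the majority, and as the largest changes of each list. Members given for their position, pseudogene reads, transcript length or lost calls, such as RPL14, RPL17, RPL21, RPL37A and RPS26, were named after their values were seen. The grouping by chromosome and the neighbours within 5 Mb were added after the values were seen. So were the boundaries of -0.25 for the neighbours' median and of 20 CPM. Values of a few single genes are not reported here.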

Additional observations from a re-analysis of the deposited data

How the results depend on the processing

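Over the alternatives run on all 77 members, 67 to 73 were called higher and 1 to 3 lower. The correction for transcript length and GC content gave a median log2 fold change of 0.58, with 3 members called lower (RPL9, RPL34 and RPS3A), and turned FAU to -0.069, RPL36AL to -0.22, RPL34 to -0.094 and RPL15 to -0.015. The cause was not tested. Adding pseudogene reads turned RPL9 to 0.15, RPS10 to 0.49 and RPL7 to -0.58, by the reads this adds. With the replicate block 2 members were called lower (RPL9, and RPS3A at -0.42, edgeR adjusted p = 0.0337). Same-numbered libraries had correlations of -0.02, -0.00 and 0.04 in their deviations from the group means. That cannot exclude a pairing, because replicate libraries differed by only slightly more than counting error. Leaving out a library gave 1 to 2 members called lower. Among the 90 genes taken by the naming rule and 19 alternatives, 7 combinations turned direction with a call in the main or the alternative fit. With direction kept, 6 passed the threshold newly and 5 lost it. The other 1691 were counted as unchanged, which includes any change of direction where neither fit gave a call. RPL36A was not tested after thinning. Outside that rule, RPS26 lost its call in 6 alternatives and RPL17 in 2. Low counts limit the 10 members under 20 CPM.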

Other observations

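Mitochondrial ribosomal proteins, which make the separate ribosome of mitochondria, were also higher: 63 of 76 tested rose, 2 fell and the median was 0.52 on the log2 scale, while 35.5% of all tested genes were called higher. Their reads took 0.378 ± 0.003% of the shNTC libraries and 0.545 ± 0.004% of the shNEDD9 libraries (SD, n = 3 each). Transcripts of the mitochondrial genome went the other way, from 3.33 ± 0.06% to 2.40 ± 0.02% of counts (SD, n = 3 each).

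Small nucleolar RNAs, which guide modification of ribosomal RNA, lie inside 28 of the 77 ribosomal protein genes. Of those 28 genes, 27 were called higher (median log2 fold change 0.77), and of the other 49 genes 44 were called higher and 1 lower (median 0.71). Of 28 tested ribosomal protein pseudogenes, 18 were called higher and 3 lower, beside 35.5% and 35.9% of all tested genes. RPS2P5 rose from 29.5 to 35.8 CPM to 63.3 to 66.6 CPM, and RPL18AP3 from 2.20 to 3.63 CPM to 8.37 to 10.4 CPM. Whether those reads come from the pseudogenes or from their parent genes was not tested.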
